A study of Mus musculus with 6 samples.

Results

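Transcript levels were measured for 9 enzymes that add terminal or branching sugars to cell surface glycans, namely Gcnt1, Gcnt2, B4galt1, Fut7, St3gal4, St3gal6, St6gal1, St8sia1 and St8sia6. They were taken by symbol from the array annotation, as every probe set that names exactly 1 gene and names 1 of these. That gave 26 probe sets for 9 genes, out of 34945 probe sets and 18193 genes measured. The cells were CD4+ T cells of memory phenotype from female C57BL/6 mice aged 8 to 10 weeks with experimental autoimmune encephalomyelitis (EAE), a paralytic inflammation of the central nervous system, induced with the peptide MOG35-55 and sampled in the acute clinical phase. Cells of the spinal cord (3 arrays) are called cord cells below, and those of the draining inguinal lymph node (3 arrays) node cells. Both groups carry the same strain, sex, age and disease, and no unimmunised animals or other T cell subsets were analysed here. The labels do not say whether an array holds cells of 1 animal or of several, so p-values measure only the spread between these arrays, which may be technical.

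Selectins on endothelium catch leukocytes by binding a fucosylated and sialylated sugar, sialyl Lewis x, which sits on branched O-glycans of carrier proteins such as Selplg. In T cells this structure needs a branching enzyme (Gcnt1), galactose on the branch (B4galt1), sialic acid on the galactose (St3gal4 and St3gal6) and fucose (Fut7). Other enzymes compete for the same acceptors or alter the same chains: St6gal1 adds sialic acid through a different bond, Gcnt2 branches linear lactosamine chains into the I blood group form, and St8sia1 and St8sia6 add sialic acid onto sialic acid. Each value below is an RMA intensity on a linear scale, the array's brightness for a probe set after normalization, and it does not measure enzyme activity or surface glycans.

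Markers of T cells were bright in both tissues, and most macrophage markers read higher on the cord arrays without passing the test. The summed intensity of 13 measured T cell markers was 80587 to 92634 in cord cells, against 80955 to 105224 in node cells, with 0 of 13 called. Of 21 macrophage, monocyte and microglia markers, 20 had positive changes and 0 were called. With the array number as a block 9 of the 21 were called higher, beside 3.67% of all genes. The tissues did not overlap for 19 of the 21, beside 18.5% of all genes, and 1 of the 19, Ctss, was lower in cord cells. The sum over all 21 was 12228, 19558 and 13616 on cord arrays 1, 2 and 3 and 14555 to 15480 in node cells, so cord arrays 1 and 3 lay below the node arrays. Without Ctss, which made up most of it, the sum was 1781, 6403 and 3651 on cord arrays 1, 2 and 3 and 1026 to 1108 in node cells. The 11 neutrophil markers summed to 995, 2566 and 1141 on cord arrays 1, 2 and 3, against 554 to 747 in node cells. The tissues did not overlap in this sum, and all 11 changes were positive. Mmp9 was the 1 called, and without it the sums were 575, 2307 and 849, against 436 to 602, with overlap. The 11 endothelial markers summed to 706 to 749 in cord cells, against 589 to 903 in node cells. The 14 neural markers summed to 8042 to 13216 and 10776 to 16104, mostly Cnp and Mbp, which were bright in both tissues. Of these 14, 11 changes were positive and 3 negative, with a median of 0.15 and 0 called. Mog and Snap25, the dimmest of the 14, read 13 to 17 on every array. The 7 plasma cell markers summed to 4296 to 7738 and 3678 to 4508, mostly Xbp1, with 0 called. The 7 markers of CD8 and NK cells summed to 897 to 2374 and 751 to 3523, and 1 of them, Klrk1, was called higher in spinal cord. The 9 dendritic cell markers summed to 958 to 1061 in cord cells, against 727 to 814 in node cells. The tissues did not overlap in this sum, all 9 changes were positive, and Itgax was the 1 called higher. The 5' to 3' ratio of the actin control, a sign of RNA length, overlapped between tissues on the log2 scale, at -2.30 to -1.30 in cord cells, against -3.50 to -0.82 in node cells. In each tissue the array numbered 2 had the lowest ratio for actin (-2.30 and -3.50) and for Gapdh (-4.63 and -5.03).

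Of the 9 genes, Gcnt2 rose in spinal cord and Gcnt1, St6gal1 and St8sia6 fell. B4galt1, Fut7, St3gal4, St3gal6 and St8sia1 were not called. Called means a limma p under 0.05 once adjusted by Benjamini-Hochberg for all genes, each gene being represented by the probe set of highest mean. The background is 2.54% of all genes called in either direction, 1.13% higher and 1.41% lower. The genes were selected with results of these arrays known, so the count of 4 in 9 is a description. With the array number as a block 5 were called, 2 higher and 3 lower, beside 3.67% and 7.45% of all genes. Without cord array 2 or node array 2 only Gcnt2 was called. The tissue groups did not overlap for the same 4 genes, as they did not for 18.5% of all genes. Because these are bulk samples, fewer cells expressing a gene and less RNA in each cell cannot be told apart.

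**Figure D1:**
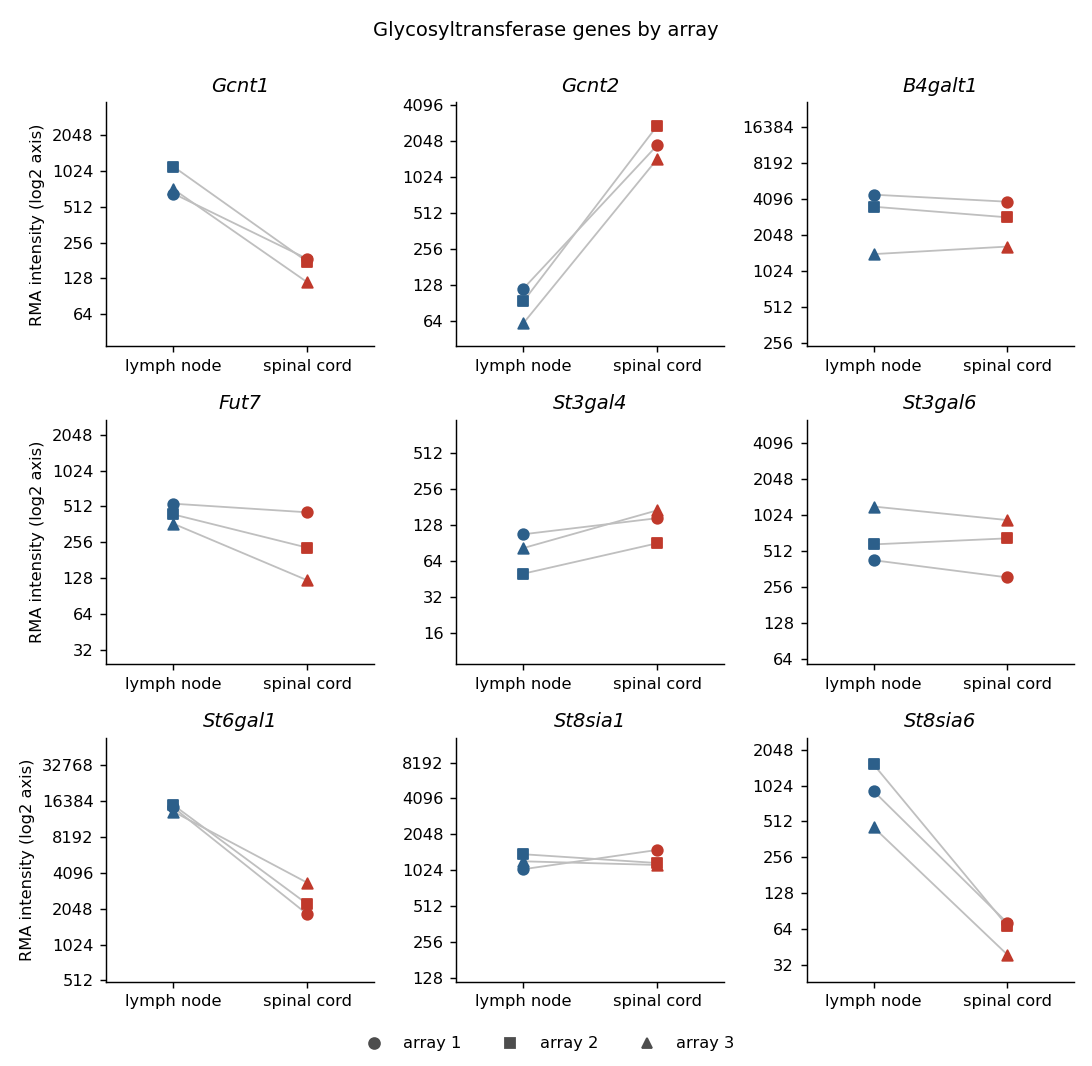
RMA intensity (log2 axis) of each gene's brightest probe set in lymph node (blue) and spinal cord (red), 1 point per array, with grey lines joining arrays of the same number. Every panel spans the same number of doublings; Gcnt2 climbs in all 3 lines, Gcnt1, St6gal1 and St8sia6 drop in all 3, and the other 5 panels overlap between tissues.

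Gcnt1, the enzyme that makes the branch on which T cells build selectin ligands, fell in spinal cord. It read 187, 177 and 119 on cord arrays 1, 2 and 3, against 660, 1112 and 719 on the node arrays. All 3 spinal cord arrays lay below all 3 lymph node arrays. The log2 means were 7.30 ± 0.36 and 9.66 ± 0.40 (SD, n = 3 each), a 5.12-fold lower level (log2 change -2.36 ± 0.27 SE, adjusted p = 0.0138). A second probe set read 107, 137 and 123 against 321, 279 and 353 and was also called in the fit over probe sets, 2.60-fold lower (adjusted p = 0.0164). Without a single array it was called in none of the 6 fits over probe sets (0.0560 to 0.0722). The same held for the brightest probe set, called over probe sets (adjusted p = 0.0187) but in none of those 6 fits (0.0517 to 0.0912). In the fit over genes the call of Gcnt1 was lost without lymph node array 2 or spinal cord array 2 (adjusted p = 0.0501 and 0.0717). The log2 changes were then -2.12 and -2.44. The call was also lost with values under 25 raised to 25 across all genes (0.0578), though no Gcnt1 value here was that low.

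Gcnt2, which adds branches along lactosamine chains, rose more than any other of the 9 genes. Its brightest probe set read 1901, 2772 and 1458 in cord cells, against 119, 93 and 61 in node cells. The dimmest spinal cord array was far above the brightest lymph node array. The log2 means were 10.95 ± 0.47 and 6.45 ± 0.49 (SD, n = 3 each), a 22.5-fold higher level (log2 change 4.49 ± 0.33 SE, adjusted p = 0.00533). Leaving out each array in turn gave changes of 4.23 to 4.71, and the call held in all 6 fits over genes (highest adjusted p 0.0414). In the fits over probe sets this probe set kept its call in 5 of the 6 (highest adjusted p 0.0524).

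The size of the Gcnt2 difference depended on the probe set. Of its 8 probe sets, all had positive changes and 2 were called in the fit over probe sets, where 1.49% of all probe sets were called. The second called probe set read 320, 504 and 323 in cord cells, against 122, 112 and 124 in node cells, 3.13-fold higher (adjusted p = 0.0225), and leaving out any array ended its call (0.0543 to 0.116). Another pattern was seen at 3 dim probe sets, which read 50, 195 and 37, then 54, 110 and 62, then 36, 107 and 27 on cord arrays 1, 2 and 3, and 16 to 31 in node cells. These were highest in spinal cord array 2 and were not called (adjusted p = 0.466, 0.0649 and 0.283; the middle one was called with the replicate number as a block, adjusted p = 0.0295, where 7.65% of all probe sets were called). The other 3 probe sets read 16 to 26 on every array, near the 20th percentile of all values (25). With the mean of all 8 probe sets in place of the brightest, the Gcnt2 change was 1.41 and was still called (adjusted p = 0.0433).

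Spinal cord array 2 was also the array with the highest macrophage sum without Ctss, at 6403, and neutrophil sum without Mmp9, at 2307. Array 3 had a higher macrophage sum than array 1 (3651 against 1781) and a lower Gcnt2 reading (1458 against 1901). Without array 2 the Gcnt2 change was 4.25 (adjusted p = 0.0324). The part of myeloid cells in the Gcnt2 level was not tested.

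Promoter sequence was read for the 9 genes because 3 of them fell together and Gcnt2 moved the other way. RefSeq places 17 transcription starts for them on GRCm38.p6, and all 9 genes matched by symbol. Gcnt2 has 3 starts, shown because its probe sets differed so much; which start a probe set reports was not tested. Each line gives the 250 bases before a start, 5′ to 3′, and capitals mark any match to the letters named after the sequences.
Gcnt2 start 1, chr13:40859518-40859767, plus strand: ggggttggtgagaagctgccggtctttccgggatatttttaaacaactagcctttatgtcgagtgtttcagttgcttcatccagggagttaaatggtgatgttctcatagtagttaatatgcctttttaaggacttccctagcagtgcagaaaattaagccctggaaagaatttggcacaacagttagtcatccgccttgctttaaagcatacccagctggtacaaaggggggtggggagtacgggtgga
Gcnt2 start 2, chr13:40886508-40886757, plus strand: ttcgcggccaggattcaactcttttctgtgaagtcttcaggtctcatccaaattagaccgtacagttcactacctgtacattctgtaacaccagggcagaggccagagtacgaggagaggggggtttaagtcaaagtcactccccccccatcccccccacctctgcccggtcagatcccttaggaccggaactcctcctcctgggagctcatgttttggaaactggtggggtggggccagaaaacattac
Gcnt2 start 3, chr13:40917384-40917633, plus strand: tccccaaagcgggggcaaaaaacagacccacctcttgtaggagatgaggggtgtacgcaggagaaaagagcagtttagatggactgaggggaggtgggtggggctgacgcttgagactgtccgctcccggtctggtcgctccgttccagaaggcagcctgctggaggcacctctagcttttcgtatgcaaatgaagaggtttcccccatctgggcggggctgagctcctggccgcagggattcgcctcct
None of these 3 windows holds a match, so they have no capitals. Their GC content was 45.6%, 54.0% and 59.6%.

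The letters searched, on both strands, were GGTGTGA for T-box factors such as T-bet, GGGTGTG for Kruppel-like factors, AGATAA for GATA factors and GGAAAA for NFAT, all families that act in T cells. GGTGTGA and GGGTGTG share the letters GGTGTG. Over 32851 RefSeq starts, 3.33%, 6.93%, 9.99% and 20.4% of 250-base windows hold a match to each in turn. For the 3 genes that fell, the windows that hold a match were these.
Gcnt1, chr19:17372845-17373094, minus strand: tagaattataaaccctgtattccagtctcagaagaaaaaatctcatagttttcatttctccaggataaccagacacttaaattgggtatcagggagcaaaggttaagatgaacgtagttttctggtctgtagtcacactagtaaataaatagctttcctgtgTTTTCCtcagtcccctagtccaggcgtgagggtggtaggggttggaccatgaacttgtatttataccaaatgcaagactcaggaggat
St6gal1, chr16:23224490-23224739, plus strand: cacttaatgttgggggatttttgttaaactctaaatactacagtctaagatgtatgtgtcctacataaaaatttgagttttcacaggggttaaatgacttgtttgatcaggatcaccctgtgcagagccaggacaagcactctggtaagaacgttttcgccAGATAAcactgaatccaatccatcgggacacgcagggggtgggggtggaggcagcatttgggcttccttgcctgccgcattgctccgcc
St8sia6, chr2:13793521-13793770, minus strand: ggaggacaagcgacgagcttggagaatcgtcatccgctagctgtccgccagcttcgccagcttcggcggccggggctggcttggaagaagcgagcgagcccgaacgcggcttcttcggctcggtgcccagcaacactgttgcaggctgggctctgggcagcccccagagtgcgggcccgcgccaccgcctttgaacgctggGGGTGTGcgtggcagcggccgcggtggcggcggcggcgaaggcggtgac
The Gcnt1 window, 1 of its 3 starts, has the NFAT letters on the reverse strand. The St6gal1 window, also 1 of 3, has the GATA letters, and the only St8sia6 window has the Kruppel-like letters. The 3 genes therefore share none of these letters in their windows. Of the genes that were not called, Fut7 has the GATA letters at 1 of 2 starts and St3gal6 the NFAT letters at both and the GATA letters at 1, and no window of the 17 has the T-box letters. A match is only a match of letters.

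B4galt1, which adds galactose to many glycans including the branch made by Gcnt1, did not pass the test. It read 3890, 2877 and 1636 in cord cells, against 4459, 3533 and 1414 in node cells. In both tissues the array numbered 3 was the lowest, and the groups overlapped. The log2 change was -0.09 with a 95% interval of -1.34 to 1.16 (adjusted p = 0.963). With the number as a block the SE was 0.14 in place of 0.51, still without a call (adjusted p = 0.734). Within arrays of the same number the log2 differences were -0.20, -0.30 and 0.21.

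Fut7, the fucosyltransferase that completes sialyl Lewis x in T cells, was lower on average in spinal cord but not called. It read 457, 231 and 123 in cord cells, against 540, 439 and 367 in node cells. Spinal cord array 1 lay above 2 of the lymph node arrays, and the spinal cord arrays spread widely, with a log2 SD of 0.95 against 0.28 (n = 3 each). The log2 change was -0.91 with a 95% interval of -2.06 to 0.23 (adjusted p = 0.474, and 0.0820 with the replicate number as a block). The differences within numbers 1, 2 and 3 were -0.24, -0.93 and -1.58, all in the same direction.

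St3gal4 and St3gal6, which cap galactose with the sialic acid that selectin ligands need, were not called. St3gal4 read 146, 90 and 170 in cord cells, against 107, 50 and 82 in node cells. The groups overlapped, but each spinal cord array was above the lymph node array of its own number, by 0.45, 0.85 and 1.05 on the log2 scale. The log2 change was 0.78 ± 0.36 SE (95% interval -0.08 to 1.65, adjusted p = 0.403), and with the number as a block St3gal4 was called higher (adjusted p = 0.0307), where 11.1% of all genes were called. St3gal6 read 307, 653 and 929 in cord cells, against 428, 581 and 1207 in node cells. In both tissues the array numbered 3 was the highest, and the groups overlapped. Its log2 change was -0.23 with a 95% interval of -1.52 to 1.06 (adjusted p = 0.906), and 0 of its 5 probe sets were called. With the block the SE of St3gal6 was 0.16 in place of 0.53, still without a call (adjusted p = 0.437).

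St6gal1, which adds sialic acid to galactose through the bond that the lectin Cd22 recognises, fell in spinal cord. It read 1840, 2239 and 3379 in cord cells, against 14481, 15177 and 13354 in node cells. The lymph node arrays lay close together, with a log2 SD of 0.09 against 0.45 (n = 3 each), and no spinal cord array came near them. The level was 5.95-fold lower (log2 change -2.57 ± 0.23 SE, adjusted p = 0.00777). The call was lost without lymph node array 2 (adjusted p = 0.0501) or spinal cord array 2 (0.0536), with log2 changes of -2.53 and -2.52. With the mean of both probe sets the change was -1.50 (adjusted p = 0.0254). A second, dim probe set of the same source sequence read 67, 66 and 86 in cord cells, against 144, 71 and 92 in node cells and was not called (log2 change -0.44, 95% interval -1.12 to 0.25).

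Cd22 fell in the same arrays. It read 108, 98 and 116 in cord cells, against 620, 679 and 750 in node cells, 6.36-fold lower (log2 change -2.67 ± 0.13 SE, adjusted p = 0.00171). Cd22 and St6gal1 are both strongly expressed by B cells, so the B cell list is given beside them. Of its 12 other measured members 0 were called, and they read 21 to 117 on every array. Their summed intensity was 500 to 534 in cord cells, against 483 to 615 in node cells. The antigen receptor gene Cd79b read 43, 29 and 39 in cord cells, against 117, 79 and 57 in node cells (adjusted p = 0.134; called with the number as a block, adjusted p = 0.0268), while Cd79a read 36 to 63 and Ms4a1 27 to 43 over all 6 arrays. The part of B cells in the levels of St6gal1 and Cd22 was not tested.

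**Figure D2:**
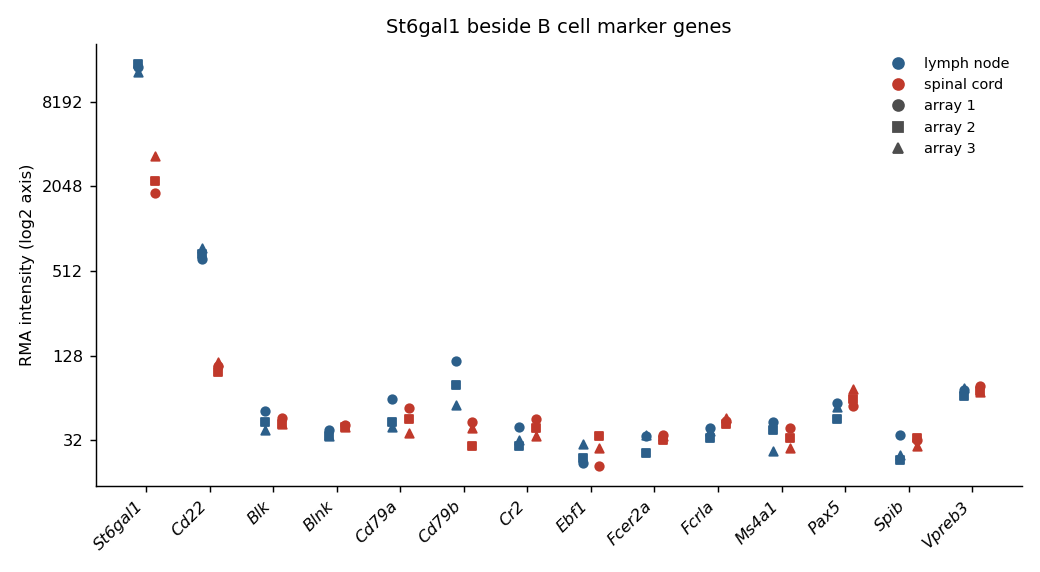
RMA intensity (log2 axis) of St6gal1 and of the 13 measured B cell marker genes in lymph node (blue) and spinal cord (red), 1 point per array with a symbol for each array number. St6gal1 and Cd22 part the tissues widely, while the other 12 markers read 21 to 117 on all arrays. Of those 12, Cd79b (lower in cord cells), Blnk and Fcrla (both higher) also did not overlap between tissues, beside 18.5% of all genes.

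St8sia6, which adds sialic acid onto sialic acid mainly on O-glycans, had the largest fall of the 9 genes. It read 72, 68 and 39 in cord cells, against 921, 1543 and 458 in node cells. The groups were far apart although the lymph node arrays differed by over 3-fold among themselves. The level was 15.0-fold lower (log2 change -3.91 ± 0.48 SE, adjusted p = 0.0163), and the call was lost without any 1 array other than lymph node array 3, with adjusted p of 0.0547 to 0.0781 and changes of -4.07 to -3.50. Raising values under 25 to 25 across all genes also ended it (adjusted p = 0.0722), though its own lowest value was 39. All 3 of its probe sets were called. A tighter one read 52, 74 and 64 in cord cells, against 762, 935 and 691 in node cells, 12.6-fold lower (log2 change -3.66 ± 0.18 SE), and it stayed called whichever array was left out (highest adjusted p 0.0333 over probe sets). The remaining one read 41, 59 and 75 against 349, 376 and 185, 5.11-fold lower, and was called in 1 of those 6 fits (highest adjusted p 0.164). With the mean of the 3 probe sets the St8sia6 change was -3.31 (adjusted p = 0.00630).

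St8sia1, the enzyme that makes the ganglioside GD3 in activated lymphocytes, gave different answers at its probe sets. Its brightest read 1515, 1176 and 1133 in cord cells, against 1044, 1394 and 1216 in node cells, with overlap and a log2 change of 0.06 (95% interval -0.36 to 0.48, adjusted p = 0.924). A second, of another source sequence, read 1098, 887 and 1454 in cord cells, against 484, 665 and 608 in node cells. There the tissues did not overlap, and the change was 0.95 ± 0.22 SE, not called (adjusted p = 0.133). The remaining one read 187, 118 and 197 against 133, 58 and 95 (change 0.86, adjusted p = 0.397) and was called with the number as a block (adjusted p = 0.0380).

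**Figure D3:**
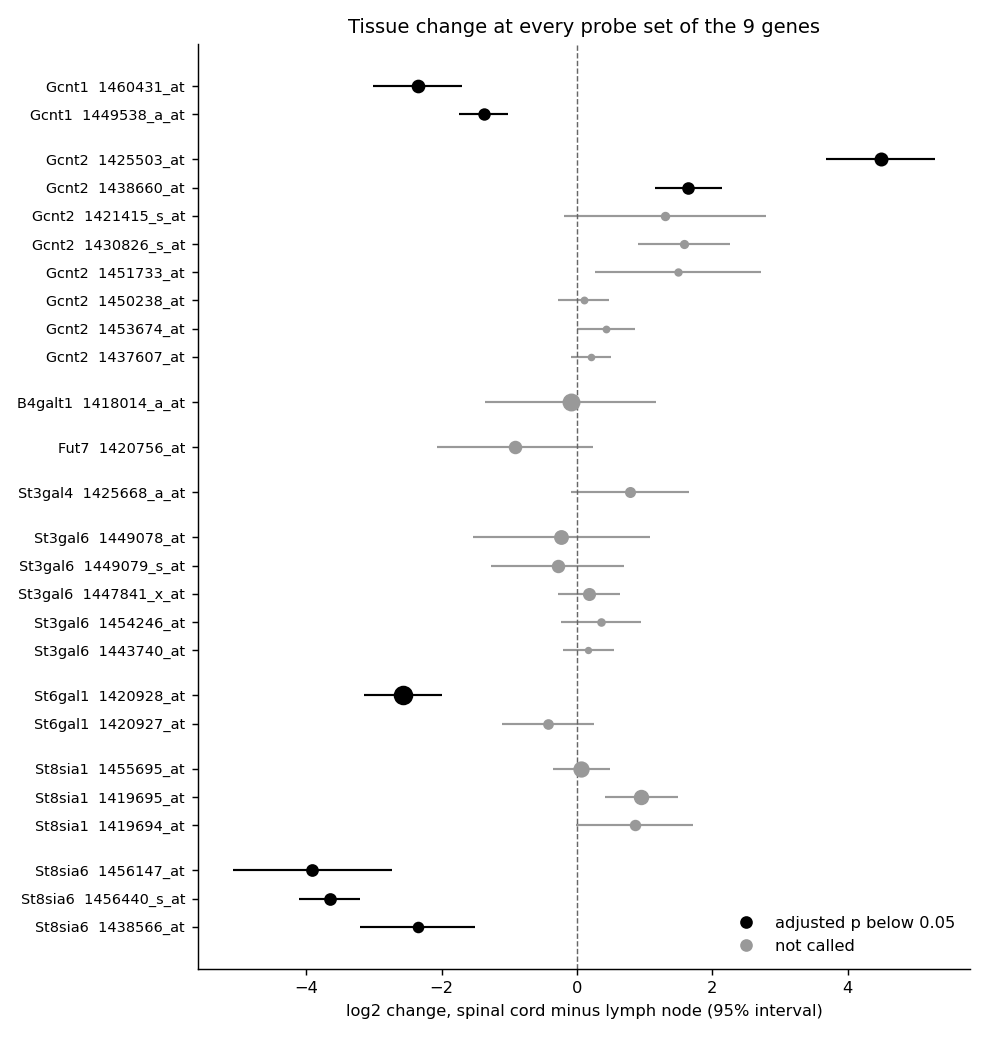
Log2 change, spinal cord minus lymph node, at each of the 26 probe sets with its 95% interval from limma; larger points are brighter probe sets and black points were called over all probe sets. The 8 black points are 2 of Gcnt1, 2 of Gcnt2, 1 of St6gal1 and 3 of St8sia6.

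Over all 26 probe sets, 2 were called higher and 6 lower, beside 0.701% and 0.784% of all probe sets. With the number as a block 5 were higher and 6 lower, beside 2.94% and 4.71%. Without single arrays 1 to 5 were called, the lowest count being without node array 2. The tissue groups did not overlap at 13 of the 26, beside 16.8% of all probe sets. No gene had probe sets called in opposite directions.

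Enzymes that work on the same acceptor or belong to one family were compared by their tissue changes within each array. The difference between the changes of Gcnt2 and Gcnt1 was 6.85 ± 0.41 (SE, log2), and the 3 spinal cord arrays did not overlap the 3 lymph node arrays. St8sia1 and St8sia6 differed by 3.97 ± 0.52, again without overlap. St6gal1 minus St3gal4, the sialyltransferases for different bonds to galactose, was -3.36 ± 0.46, without overlap. Each of these 3 pairs had p = 0.1 in a two-sided exact permutation test, which 3 arrays against 3 cannot go below (0.133 after adjustment over the 4 pairs tested). The pairs were drawn from genes chosen with results known, and all 3 of these hold a gene already called. Their separation is therefore no further support for those calls. St3gal6 and St3gal4 differed by -1.01 ± 0.79 with overlap (exact permutation p = 0.3). The SE and test leave the array number out, and the test does not show that the pair acted alike. Within arrays of the same number, in order, the log2 differences between tissues were -0.48, 0.17 and -0.38 for St3gal6. For St3gal4 they were 0.45, 0.85 and 1.05, higher in each number.

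Within arrays of the same number, the direction of each called gene was the same 3 times. This had to be so, because the tissue groups of these genes do not overlap, and it is no further support. The log2 differences were 4.0 to 4.90 for Gcnt2, -2.65 to -1.82 for Gcnt1, -2.98 to -1.98 for St6gal1 and -4.50 to -3.55 for St8sia6. Fut7 and St3gal4 also kept 1 direction in all 3 pairs, and B4galt1, St3gal6 and St8sia1 did not.

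**Figure D4:**
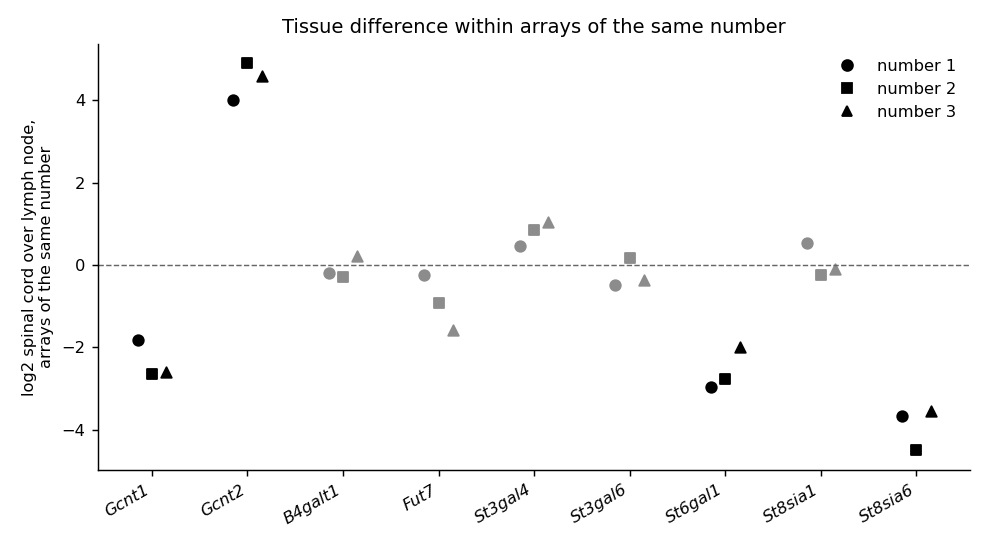
Log2 ratio of spinal cord over lymph node between arrays of the same number for each of the 9 genes, 1 symbol per number; black marks genes called over all genes. Gcnt2 lies at 4.0 to 4.90 and St8sia6 at -4.50 to -3.55, while B4galt1, St3gal6 and St8sia1 fall on both sides of 0.

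In the rest of the machinery that builds, carries, removes or reads these sugars, 6 of 121 measured genes in 11 lists were called. Galnt3, Cd24a and Siglecf rose and Cmah, Neu3 and Cd22 fell. The other 115 were not called, which does not show that they were unchanged. The 6 of 121 stand beside 2.54% of all genes, and the median log2 change over the 121 was 0.03 against 0.00 over all genes. The tissue groups did not overlap for 35 of the 121, beside 18.5% of all genes. With the number as a block 8 were higher and 17 lower (25 of 121), beside 11.1% of all genes. Without single arrays 1 to 3 of the 121 were called, and leaving out cord array 2 or node array 2 gave the count of 1.

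Among 14 measured enzymes that start O-glycans and build their cores, Galnt3, which starts the chains, rose and 13 were not called. It read 193, 309 and 267 in cord cells, against 44, 72 and 85 in node cells, 3.90-fold higher (log2 change 1.96 ± 0.30 SE, adjusted p = 0.0328), and leaving out any array ended its call (adjusted p up to 0.129). Its 2 dimmer probe sets were not called. C1galt1, which makes the core that Gcnt1 branches, read 1236 to 1822 in cord cells, against 1032 to 2473 in node cells (adjusted p = 0.893), and its chaperone C1galt1c1 was not called either (adjusted p = 0.754). Of 12 listed galactosyl- and N-acetylglucosaminyltransferases, of the families that extend lactosamine, 0 were called and the median change was 0.17. With the block Galnt6 and Galnt11 of the first list were called lower (log2 changes -0.66 and -0.55, adjusted p = 0.0301 and 0.0477), and of the second B3gnt2 lower and B3gnt4 higher (-0.59 and 0.54, adjusted p = 0.0299 and 0.0423).

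None of the 9 other fucosyltransferases and 15 other sialyltransferases was called in the fit with tissue alone, and 1 and 4 were called with the block. Fut4, the other enzyme of sialyl Lewis x in leukocytes, read 21 to 28 on every array, and Fut8, which fucosylates the N-glycan core, read 1497 to 2375 (adjusted p = 0.902). The fucosyltransferase called with the block was Pofut1, which puts fucose on Notch (log2 change -0.68, adjusted p = 0.0317). St8sia4, which makes polysialic acid, read 4068, 5529 and 4641 in cord cells, against 7520, 9458 and 10608 in node cells. Its groups did not overlap, with a log2 change of -0.95 ± 0.18 SE (adjusted p = 0.0637; 0.0119 with the block). St3gal1, which caps unbranched core O-glycans and so competes with Gcnt1, read 551, 209 and 183 in cord cells, against 898, 594 and 420 in node cells, with overlap (log2 change -1.14, adjusted p = 0.375; 0.0169 with the block). St3gal3 had the opposite sign, at 1043, 452 and 319 in cord cells, against 248, 184 and 167 in node cells (log2 change 1.43, adjusted p = 0.206; 0.0182 with the block). St6galnac3 was called higher with the block as well (log2 change 1.08, adjusted p = 0.0254). St3gal2, St3gal5 and St6galnac1 were not called in either fit (log2 changes -0.41, -0.22 and 0.23).

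Of 19 genes that make or carry sugar nucleotides 1 was called. Of 12 genes of sulfation, which include makers and carriers of the sulfate donor beside the sulfotransferases, 0 were called. Cmah, which converts the common sialic acid to its glycolyl form, fell 2.13-fold (log2 change -1.09 ± 0.19 SE, adjusted p = 0.0472), at 1082, 842 and 814 in cord cells, against 1560, 2094 and 2188 in node cells. Leaving out arrays in turn kept its call in 1 fit of 6 (adjusted p up to 0.182). All 6 of its probe sets had negative changes, but none was called in the fit over probe sets (adjusted p = 0.0628 to 0.679). In the sugar nucleotide list 14 changes were negative and 5 positive, with a median of -0.35. The largest positive one was that of Uap1, which makes UDP-N-acetylglucosamine, at 1902, 947 and 1858 in cord cells, against 687, 522 and 794 in node cells (log2 change 1.19, adjusted p = 0.149; called higher with the block, 0.00965). Fpgt and Nanp were called lower with the block only (log2 changes -0.77 and -1.03, adjusted p = 0.0333 and 0.0464). The Golgi transporters for GDP-fucose, Slc35c1, and for CMP-sialic acid, Slc35a1, differed by -0.63 and -0.06 on the log2 scale, without a call (adjusted p = 0.808 and 0.942; 0.0440 with the block for Slc35c1). Tpst1, a tyrosine sulfotransferase of the kind that modifies Selplg, read 159 to 208 in cord cells, against 265 to 331 in node cells (log2 change -0.69, adjusted p = 0.0921; 0.0230 with the block), and Tpst2 was not called (0.29, adjusted p = 0.854). Slc35b3, which carries the sulfate donor into the Golgi, was also called lower with the block only (log2 change -0.92, adjusted p = 0.0165).

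Of 6 genes for removing sialic acid Neu3, a sialidase of the cell membrane, fell and 5 were not called. Neu3 read 171, 129 and 132 in cord cells, against 270, 342 and 301 in node cells, 2.12-fold lower (log2 change -1.08 ± 0.16 SE, adjusted p = 0.0319), and kept its call in 1 fit of 6 with an array left out (adjusted p up to 0.132). The lysosomal sialidase Neu1 had a change of -0.73 (adjusted p = 0.570; 0.0145 with the block). None of 12 N-glycan branching genes was called, among them Mgat5, whose product makes chains bound by galectins (log2 change -0.70, adjusted p = 0.197). With the block Man1a, a mannose-trimming enzyme, was called lower (log2 change -0.89, adjusted p = 0.0200) and Mgat4a, a branching enzyme, higher (0.63, adjusted p = 0.0391). None of 8 ganglioside genes was called, with Ugcg at -0.57 and B4galnt1 at -0.13. The list's largest change was that of B3galt4, a galactosyltransferase of gangliosides, which read 466, 253 and 190 in cord cells, against 871, 666 and 543 in node cells (log2 change -1.27, adjusted p = 0.172; called lower with the block, 0.00848).

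Of 11 measured selectins and carriers of selectin ligands Cd24a rose and 10 were not called. Selplg, the main P-selectin ligand of T cells, read 16942, 10588 and 7303 in cord cells, against 13092, 9106 and 5738 in node cells, with overlap and a log2 change of 0.31 ± 0.41 SE (adjusted p = 0.817). Spn read 5581 to 9965 in cord cells, against 7986 to 10523 in node cells, and Cd44, a marker of memory T cells, 6312 to 10631 and 6456 to 8551 (adjusted p = 0.812 and 0.802). Cd24a, a small heavily glycosylated protein that P-selectin can bind, rose: it read 881, 497 and 269 in cord cells, against 90, 72 and 54 in node cells, 6.96-fold higher (log2 change 2.80 ± 0.45 SE, adjusted p = 0.0370). It kept its call in 1 fit of 6 with an array left out (adjusted p up to 0.155). All 3 of its probe sets had positive changes, but none was called in the fit over probe sets (adjusted p = 0.0504, 0.105 and 0.0680).

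Of 8 sialic acid binding lectins, Cd22 fell and Siglecf rose. Siglecf, a lectin known from eosinophils and some macrophages, read 47, 38 and 32 in cord cells, against 13, 13 and 15 in node cells. The lymph node values lay below the 20th percentile of all values, so the difference is given as at least 1.54-fold higher, against that percentile (adjusted p = 0.0138), with the call kept in 4 fits of 6 with an array left out (up to 0.0764). The macrophage sums without Ctss were 1781, 6403 and 3651 in the same spinal cord arrays, and their part in the Siglecf level was not tested. Siglec1, Siglece, Siglecg, Cd33, Mag and Siglech were not called.

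**Figure D5:**
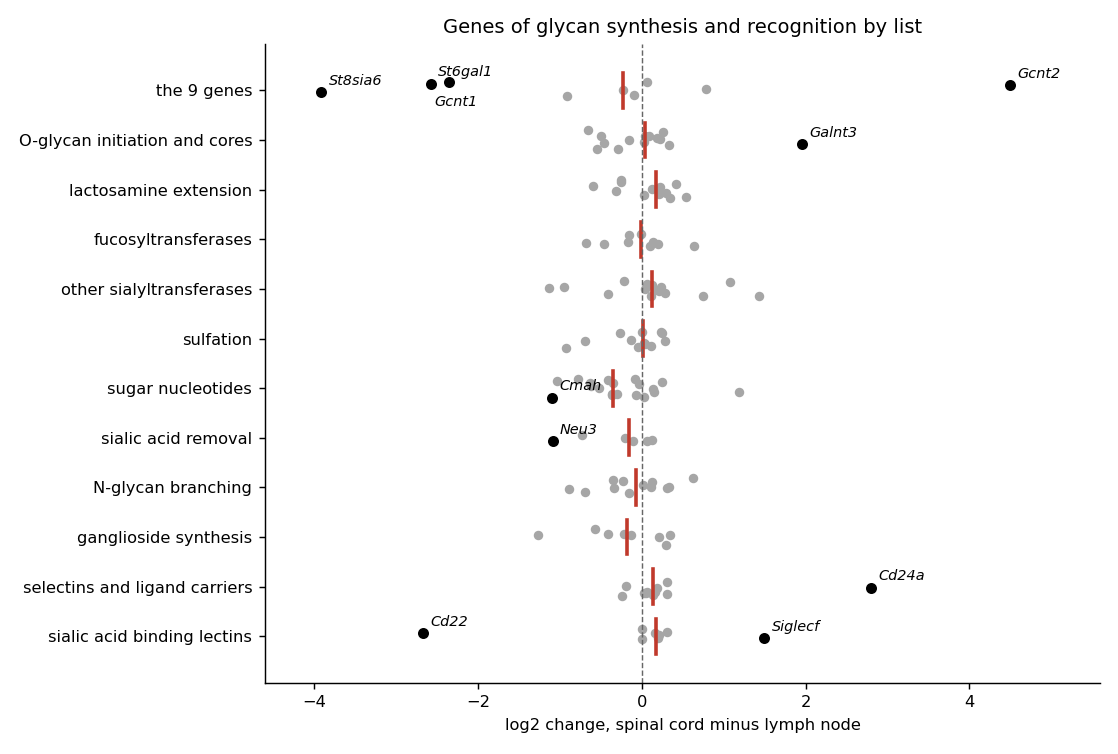
Log2 change, spinal cord minus lymph node, of each gene in the 9-gene set and in 11 lists of glycan synthesis and recognition; black points were called over all genes, grey points were not, and red bars are list medians. In all, 10 genes are black, 4 of them in the top row, and the list medians lie between -0.35 and 0.18.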

How the data were processed

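CD4+ T cells of memory phenotype were profiled on 3 spinal cord and 3 lymph node arrays. Per the labels' protocols, column-purified RNA (1 ng) was amplified in 2 cycles, which can add variation between arrays and shorten the product. Per the submitters' processing notes the authors used RMA, a method that turns probe brightness into background-corrected, normalized probe set values. No RMA version was among the sources used. The authors' deposited values are intensity in whole numbers, linear, from 9 to 39505, and log2 was taken here before testing. Array medians were 68 to 71. No detection calls were used, and precision is limited by the number of arrays.

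Probe sets naming 1 gene in the platform annotation, controls left out, were used (34945). For each of 18193 genes the one with the highest mean was tested with limma 3.58.1 (lmFit, eBayes) in R 4.3.3, in a two-sided test whose model held tissue alone, and p was adjusted by Benjamini-Hochberg at 0.05. A second fit over all 34945 probe sets served the further probe sets. SE and 95% intervals are limma's. Groups came from the tissue in the titles.

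Array numbers were taken to pair the arrays from the data: each array's deviations from its tissue mean correlated, across genes, at 0.509 to 0.777 for the same number and -0.569 to 0.00506 otherwise, part of which centring builds in. The labels do not say what a number shares.

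The 9 genes, the lists, the motifs and the rule for naming genes were chosen with earlier results of these data known. The rule named all 9, every called list gene (up to 6 a list) and fixed genes of each step; 6 of 127 listed genes were not analysed here. Itgax, Klrk1, Cd79a, Cd79b, Ms4a1, Blnk, Fcrla, Mog, Snap25, the uncalled lectins and list genes called only with the block were named after their values were seen. Tried beside this were the number as a replicate block, leaving out each array, a dim-gene filter at the 40th percentile, quantile normalization, a trended robust variance, the mean of all probe sets, a 2-fold minimum and a floor at the 20th percentile. Tested on simulated data of 18193 genes for this comparison, the fit recovered 36%, 84%, 94% and 94% of genes changed by 1, 2, 3 and 4 on the log2 scale (50 each), with 10 false calls. The simulated noise was independent between genes and arrays, whereas arrays of the same number correlated here, so these rates may not hold for the real arrays. Python 3.11.15, pandas 2.3.3, numpy 2.4.6, scipy 1.17.1 and matplotlib 3.10.9 were used.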

Additional observations from a re-analysis of the deposited data

How the results depend on the processing

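Among the 9 genes, Gcnt2 kept its direction and call under all 12 alternatives (log2 changes 1.41 to 4.71). Gcnt1, St6gal1 and St8sia6 kept their direction in all 12 and their call in 9, 10 and 6. The number of genes called also moved with the replicate block (668 higher, 1355 lower, 25 of the 121 pathway genes) and with the floor at the 20th percentile (77 higher, 84 lower, 2 of the 9 genes, 1 pathway gene). The floor ended the calls of Gcnt1 (adjusted p = 0.0578) and St8sia6 (0.0722). Neither gene has a value under 25 (lowest 119 and 39), so the floor changed only other genes, which share the fit and the adjustment of p. Leaving out single arrays gave 49 to 136 genes higher, 32 to 190 lower, 1 to 4 of the 9 genes and 1 to 3 pathway genes, with the fewest called without spinal cord array 2; these fits have fewer samples. Under the block St3gal4 gained a call and no other of the 9 genes changed side. Genes that were not called changed sign: without single arrays St8sia1 ranged from -0.067 to 0.17, St3gal6 from -0.58 to 0.22 and B4galt1 from -0.59 to 0.25. St3gal6 was 0.037 with the mean of all probe sets, and B4galt1 was 0.0079 with quantile normalization. Without single arrays a dim Gcnt2 probe set ranged from -0.018 to 0.22 and the second St3gal6 probe set from -0.57 to 0.030. The 4 differences between pairs of genes kept their sign under every alternative run. Signal over background could not be judged array by array.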
